A study of Homo sapiens with 12 samples.

Results

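The Polycomb system is described here through 9 of its genes, with every probe that measured them in A2780 cells exposed for 6 h to 3 µM of a cell cycle inhibitor. Probes were taken when the platform annotation gave EZH1, EZH2, SUZ12, EED, MTF2, PHF19, JARID2, BMI1 or RING1 as their only gene, a rule that uses no measured value. The 9 genes themselves were chosen with earlier results of these data known. The probe rule gave 24 of 54613 probe sets on AFFX and 11 of 33096 probes on ABI, for 8 of the 9 genes on each platform. BMI1 had no such probe, because the 1 AFFX and 4 ABI probes that name it also name another gene, and 1 further AFFX probe set of SUZ12 was set aside for the same reason. EZH2, EED and MTF2 each had a probe called lower in treated cells on both platforms. The MTF2 probes were lower by 1.25- to 7.56-fold on AFFX and 1.44- to 3.86-fold on ABI, not all of them called. On AFFX, 1 EED probe set was called higher. EZH1, PHF19 and JARID2 had no called probe on either platform as the arrays were scaled by the authors.

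A2780 is an established human ovarian carcinoma line. Treated cells received the inhibitor, whose name and target were not given in the sources used here, and control cells were left untreated, with only attached cells collected in either condition. RNA of the biological replicates of a condition was combined into a pool, and 3 aliquots of each of the 2 pools were run on AFFX (the Affymetrix HG-U133 Plus 2.0 array) and 3 on ABI (the Applied Biosystems Human Genome Survey Microarray v. 1.0), 12 arrays in all. The 3 arrays of a group are therefore technical replicates of 1 RNA pool, every p-value measures technical spread between the same 2 pools, and the platforms are not independent biological repeats. In whole-population RNA, fewer expressing cells and less RNA per cell cannot be told apart.

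Polycomb proteins keep developmental genes silent through the Polycomb repressive complexes PRC2 and PRC1. PRC2 methylates histone H3, giving the mark H3K27me3, and PRC1 ubiquitylates histone H2A and compacts chromatin. EZH2 and its paralog EZH1 are the alternative catalytic subunits of PRC2, SUZ12 is the scaffold that holds the core together, and EED binds the finished mark and stimulates the enzyme. MTF2 and PHF19 are Polycomb-like proteins and JARID2 a further accessory protein, all of which help to bring PRC2 to chromatin. RING1 is a ubiquitin ligase of PRC1 and BMI1 the partner that activates it. EZH2 is known to be raised in many proliferating tumors.

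The promoters of the 3 genes that were lower on both platforms are shown so that their composition can be compared. Each is the stretch of 250 bases that ends just before the gene's start in RefSeq (GRCh38.p14), written 5′ to 3′ on the gene's strand. Capitals mark CCAAT or its reverse complement ATTGG, the letters of the CCAAT box. EZH2 lies on the minus strand at chr7:148884292-148884541, EED on the plus strand at chr11:86244503-86244752 and MTF2 on the plus strand at chr1:93079033-93079282.
EZH2: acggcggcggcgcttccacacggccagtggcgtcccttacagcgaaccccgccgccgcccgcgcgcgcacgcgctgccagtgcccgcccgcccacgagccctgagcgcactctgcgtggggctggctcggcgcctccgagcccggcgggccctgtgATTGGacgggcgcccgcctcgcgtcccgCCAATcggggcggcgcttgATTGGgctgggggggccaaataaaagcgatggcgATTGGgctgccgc
EED: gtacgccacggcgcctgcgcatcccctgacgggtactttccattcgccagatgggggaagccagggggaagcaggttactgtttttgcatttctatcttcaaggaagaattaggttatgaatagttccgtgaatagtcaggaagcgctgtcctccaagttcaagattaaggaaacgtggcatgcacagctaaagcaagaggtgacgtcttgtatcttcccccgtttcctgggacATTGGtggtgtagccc
MTF2: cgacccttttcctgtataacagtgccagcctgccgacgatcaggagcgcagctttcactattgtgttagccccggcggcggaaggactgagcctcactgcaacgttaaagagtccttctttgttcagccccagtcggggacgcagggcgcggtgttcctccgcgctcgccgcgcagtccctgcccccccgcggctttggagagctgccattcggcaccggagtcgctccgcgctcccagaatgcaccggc
The EZH2 window held 4 of these CCAAT forms, the EED window 1 and the MTF2 window 0, and 32.0% of 35116 promoter windows of this length held at least 1. GC content was 75.6% for EZH2, 51.2% for EED and 64.4% for MTF2, against a median of 58.0% over all windows. The windows held 38, 11 and 25 CpG dinucleotides in the same order, with a median of 11. On both strands, the E2F site letters TTTCCCGC, TTTGGCGC, TTTCGCGC and TTTGCCGC were in 2.79% of windows and in none of these 3, while the windows of EZH1, SUZ12 and PHF19 held 1 each. The Ets letters CGGAAG were present once in the MTF2 window and in 16.5% of all windows. The 3 promoters thus differed from each other in base composition and in the motifs they held, and a match describes letters only.

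Arrays of a group were close to each other. Pearson's r between them was 0.994 to 0.997 on AFFX and 0.969 to 0.973 on ABI, and no pair of arrays held identical values. The median SD of a probe was 0.113 in treated and 0.0976 in control arrays on AFFX, and 0.298 and 0.261 on ABI, all on the log2 scale. A probe was called when limma gave a Benjamini-Hochberg adjusted p under 0.05 over all probes of its platform and the change was at least 1.5-fold. By this rule 8.95% of AFFX probe sets were lower and 1.75% higher in treated cells, and 10.1% of ABI probes were lower and 7.71% higher. With arrays centred on ribosomal protein genes these shares were 11.6% and 0.408% on AFFX and 22.5% and 0.707% on ABI. The mesenchymal filament gene VIM read 13.63 in treated and 13.71 in control arrays on AFFX probe set 201426_s_at, while its other probe set, 1555938_x_at, was called lower at -1.51 (treated 4.17, 4.15 and 3.95, control 5.74, 5.67 and 5.40). The N-cadherin gene CDH2 read 10.36 in treated and 10.11 in control arrays on its brighter AFFX probe set, the keratin gene KRT8 read 6.26 and 6.20, and the epithelial marker EPCAM read 4.21 and 4.23. Among all AFFX probe sets in control arrays, VIM 201426_s_at lay at percentile 99.96 and CDH2 203440_at at 96.5. KRT8 lay at 63.5 and EPCAM at 27.6, and without detection flags their presence could not be judged. Of the 15 AFFX and 11 ABI probes of 6 leukocyte markers none was called in limma, with 2 AFFX probe sets higher, 3 ABI probes lower and 1 ABI probe higher at an unadjusted p under 0.05, and on AFFX they reached at most 5.70 in treated and 5.50 in control arrays. Mean signals of the fibroblast and endothelial markers reached 11.26 in treated and 11.23 in control arrays on AFFX, and 5.92 and 5.66 on ABI. COL1A2, in that list, was called lower on AFFX probe set 229218_at (-1.74) but not on ABI probe 105493 (0.26).

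By its lowest-p probe, 3 of the 8 genes on AFFX were lower and 0 higher, where 14.2% of 19775 genes were lower and 2.49% higher, and 5 of the 8 on ABI were lower and 0 higher, where 14.8% of 17191 genes were lower and 6.31% higher. Of the member probes, 5 were lower, 1 was higher and 18 were not called on AFFX, so 20.8% were lower where 8.95% of all probe sets were. On ABI 7 were lower and 4 were not called, which is 63.6% lower against 10.1% of all probes. Because the genes were chosen with earlier results of these data known, these shares describe them and are no test of the group. The median log2(Fold Change), treated minus control, was -0.24 over the AFFX member probes and -0.65 over the ABI ones, where all probes had 0.12 and 0.16. Treated and control signals did not overlap, with treated below, for 13 of 24 AFFX and 9 of 11 ABI member probes, while 17.5% and 17.1% of all probes did so. They did not overlap with treated above for 4 AFFX member probes and 0 ABI ones, against 34% and 23.8% of all probes. With the fold limit dropped, 13 AFFX member probes were lower and 5 higher, where all probe sets had 15.2% and 23.3%, and on ABI 8 were lower and 0 higher, where all probes had 10.8% and 9.78%. At an unadjusted limma p under 0.05, 9 ABI member probes were lower and 0 higher. The ABI count of 7 became 2 or 3 whichever array was left out, and 9 with arrays centred on ribosomal protein genes, where the AFFX count of 5 became 7.

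**Figure D1:**
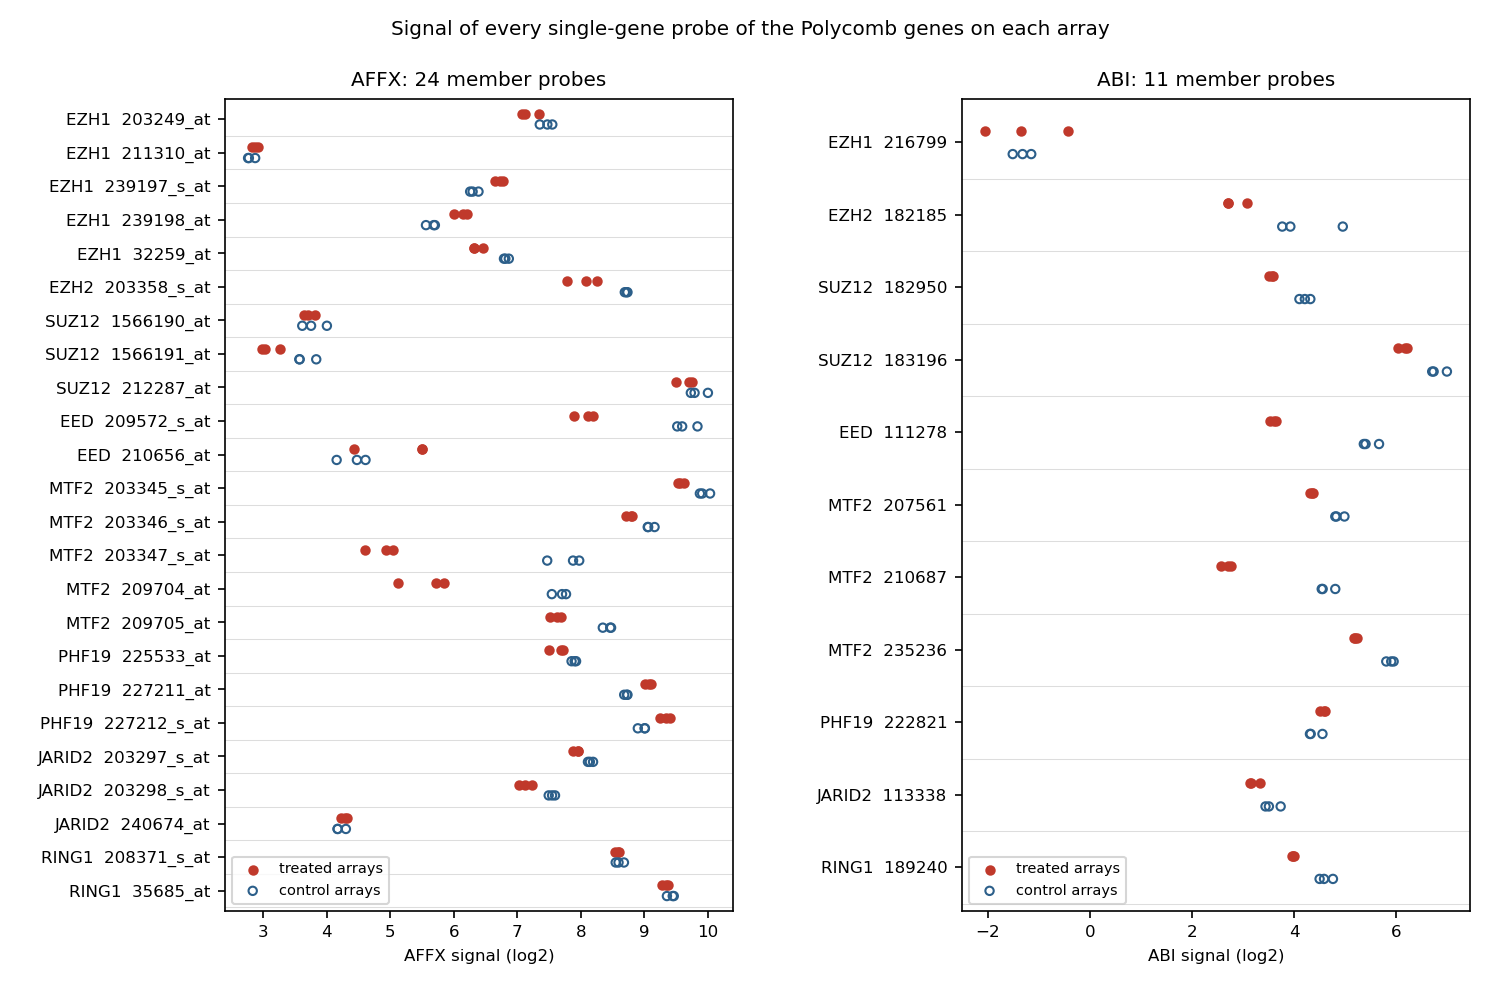
log2 signal of every single-gene member probe on each array, AFFX in 1 panel and ABI in the other, with treated arrays as filled points above the control arrays of the same probe. The points of all 8 MTF2 probes lie lower in treated arrays than in control arrays without overlap, while EED probe set 210656_at overlaps.

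**Figure D2:**
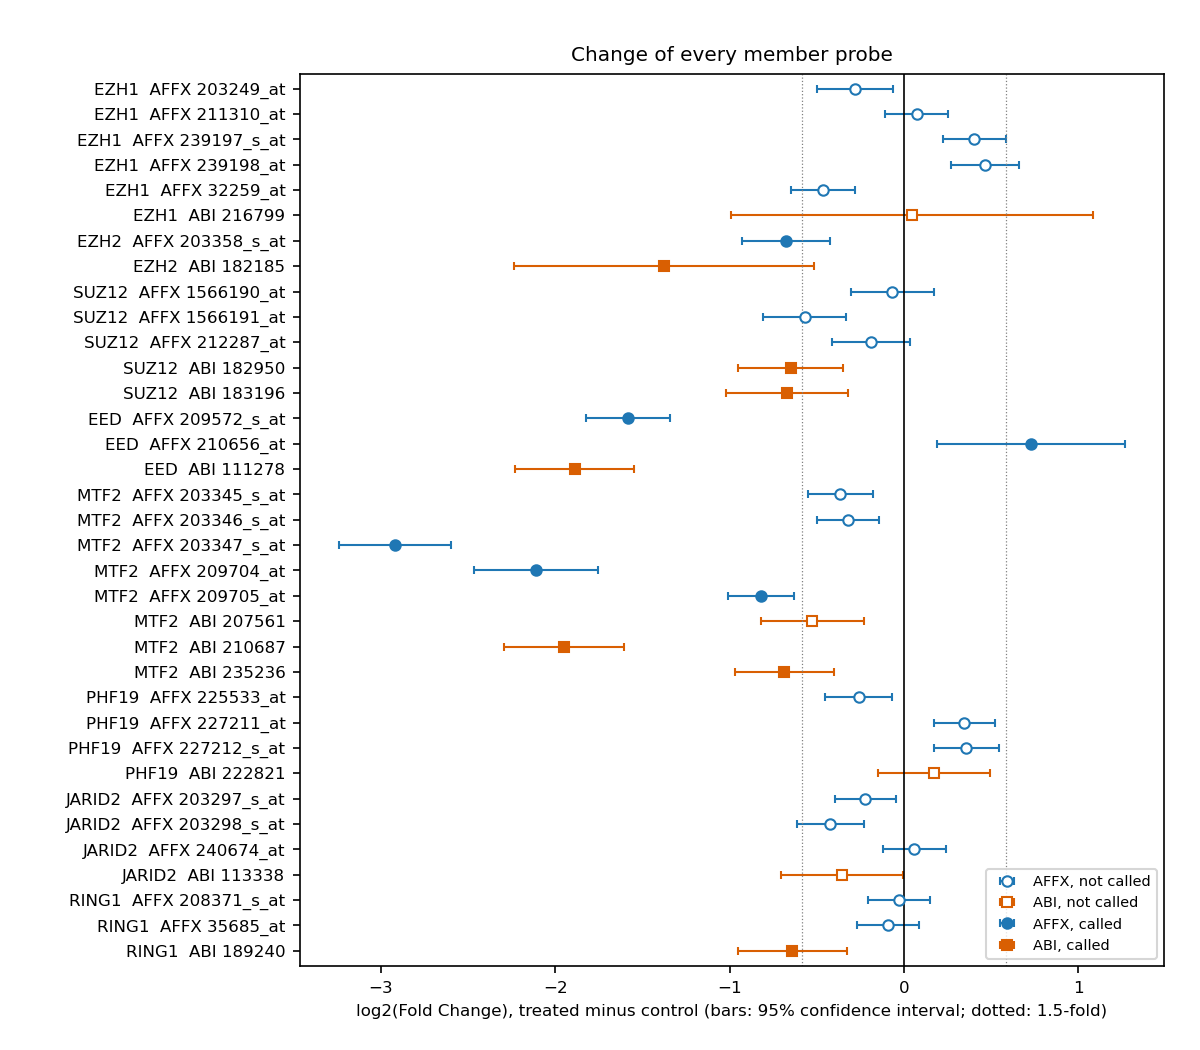
log2(Fold Change), treated minus control, of every member probe with its 95% confidence interval, by platform, with dotted lines at the 1.5-fold limit. MTF2 203347_s_at is the farthest below 0, at -2.92, and 12 of the 35 probes were called lower.

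EZH2, the main catalytic subunit of PRC2 in dividing cells, was lower in treated cells on both platforms, by 1.60-fold on AFFX and 2.60-fold on ABI. AFFX probe set 203358_s_at read 8.08, 8.26 and 7.78 in treated arrays and 8.72, 8.69 and 8.74 in control arrays (log2). Every treated array lay below every control array, and the treated arrays were the more spread. The change was -0.68 with a standard error (SE) of 0.115 and a limma adjusted p of 0.00108. Without treated array 3, which had the lowest signal, it was -0.54 and under the fold limit. ABI probe 182185 read 2.71, 2.71 and 3.08 in treated arrays and 3.92, 4.95 and 3.76 in control arrays, again without overlap, with control array 2 standing above the other controls. Its change was -1.38 (SE 0.347, limma adjusted p = 0.0437). Without control array 2 it was -1.01 and still called, and without any other array the call was lost, at a limma adjusted p of 0.0620 to 0.117. It was also lost with median centring (limma adjusted p = 0.0519), quantile normalization (0.103) and the methods' t-test (0.0888).

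EZH1, the paralog of EZH2 that prevails in non-dividing tissue, had no called probe and its probe sets pointed in different directions. On AFFX the changes of 5 probe sets ran from -0.46 for 32259_at (treated 6.45, 6.31 and 6.31, control 6.81, 6.87 and 6.79) to 0.46 for 239198_at (treated 6.14, 6.00 and 6.20, control 5.56, 5.70 and 5.68). Neither of these overlapped between groups, and both passed the adjusted p alone, at 0.00145 and 0.00221 in limma, without reaching 1.5-fold. With ribosomal protein centring 32259_at was at -0.62 and called lower. Probe set 239197_s_at had 0.40, 203249_at -0.28 and 211310_at 0.07. ABI probe 216799 gave -1.36, -2.06 and -0.43 in treated arrays and -1.32, -1.51 and -1.15 in control arrays, with overlapping groups and a change of 0.05 (SE 0.419). It was among the dimmest 33.3% of ABI probes, as was 211310_at among AFFX probe sets, and its change turned to -0.38 without treated array 3 and to -0.047 without control array 2.

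SUZ12, the scaffold of PRC2, was lower in treated cells on ABI by both probes but had no called probe set on AFFX. ABI probe 182950 read 3.58, 3.57 and 3.51 in treated arrays and 4.31, 4.21 and 4.10 in control arrays, a change of -0.65 (SE 0.122, limma adjusted p = 0.0196). ABI probe 183196 read 6.21, 6.16 and 6.03 in treated arrays and 6.99, 6.73 and 6.70 in control arrays, a change of -0.67 (SE 0.141, limma adjusted p = 0.0269). The groups did not overlap on either probe, and the 2 changes were 0.0209 apart. Either call was lost when any 1 of the 6 arrays was left out, with adjusted p between 0.0508 and 0.0836. On AFFX, 212287_at read 9.70, 9.75 and 9.51 in treated arrays and 10.00, 9.73 and 9.79 in control arrays, which overlap, with a change of -0.19 (SE 0.102). Probe set 1566191_at had -0.57 (SE 0.108, limma adjusted p = 0.00204), which is 1.48-fold and short of the limit, and 1566190_at had -0.07. Probe set 1566191_at was called lower with median centring (-0.63), with ribosomal protein centring (-0.73), and without treated array 1 (-0.66), control array 2 (-0.61) or control array 3 (-0.62). Probe sets 1566190_at and 1566191_at were among the dimmest 33.3% of AFFX probe sets.

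EED, the subunit that reads the methyl mark, was lower by 3.00-fold on AFFX and 3.70-fold on ABI. AFFX probe set 209572_s_at read 8.12, 8.19 and 7.90 in treated arrays and 9.84, 9.60 and 9.52 in control arrays, and ABI probe 111278 read 3.52, 3.60 and 3.64 in treated arrays and 5.66, 5.36 and 5.40 in control arrays. Groups were far apart on both platforms. The changes were -1.58 (SE 0.110, limma adjusted p = 1.09e-06) and -1.89 (SE 0.137, limma adjusted p = 0.00112), and both calls remained whichever array was left out. The other AFFX probe set of EED, 210656_at, read 5.49, 5.50 and 4.43 in treated arrays and 4.61, 4.47 and 4.15 in control arrays. Treated arrays 1 and 2 were high and treated array 3 lay within the control range, so the groups overlapped. Its change of 0.73 (SE 0.244, limma adjusted p = 0.0363) was called higher, but the call was lost without treated array 1 (0.55) or 2 (0.55) or without control array 1 (0.83), 2 (0.76) or 3 (0.60), and remained only without treated array 3. The 2 EED probe sets of AFFX were 2.31 apart in log2(Fold Change), and 23 of 5015 AFFX genes with 2 probe sets (0.459%) had changes at least as far apart, where the median was 0.188.

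MTF2, the Polycomb-like protein that binds unmethylated CpG-rich DNA and helps to place PRC2 there, gave a lower signal in treated cells on all 8 probes, with groups that never overlapped, and 5 of the 8 were called. AFFX probe set 203347_s_at read 5.04, 4.93 and 4.60 in treated arrays and 7.98, 7.88 and 7.47 in control arrays, a change of -2.92 (SE 0.145, limma adjusted p = 9.73e-08). Probe set 209704_at read 5.85, 5.71 and 5.12 in treated arrays and 7.77, 7.70 and 7.54 in control arrays, a change of -2.11 (SE 0.161, limma adjusted p = 2.26e-06). Array 3 was the lowest of its group on both probe sets, in treated and in control cells alike. Probe set 209705_at read 7.62, 7.69 and 7.52 in treated arrays and 8.48, 8.46 and 8.35 in control arrays, a change of -0.82 (SE 0.0857, limma adjusted p = 2.84e-05). These 3 probe sets were called, by 7.56-, 4.32- and 1.76-fold.

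The other 2 AFFX probe sets of MTF2 had smaller differences. Probe set 203345_s_at read 9.57, 9.63 and 9.53 in treated arrays and 10.04, 9.91 and 9.88 in control arrays, a change of -0.37 (SE 0.0839), and 203346_s_at read 8.72, 8.79 and 8.80 in treated arrays and 9.16, 9.06 and 9.05 in control arrays, a change of -0.32 (SE 0.0807). Neither reached 1.5-fold, with limma adjusted p of 0.00633 and 0.00969. On ABI, probe 210687 read 2.71, 2.77 and 2.57 in treated arrays and 4.80, 4.54 and 4.56 in control arrays, a change of -1.95 (SE 0.139, limma adjusted p = 0.00106), which is 3.86-fold lower. ABI probe 235236 read 5.19, 5.22 and 5.18 in treated arrays and 5.90, 5.95 and 5.80 in control arrays, a change of -0.69 (SE 0.115, limma adjusted p = 0.0141), and this call was lost without treated array 2 (-0.70) or 3 (-0.68) or control array 2 (-0.65). ABI probe 207561 read 4.31, 4.34 and 4.38 in treated arrays and 4.98, 4.83 and 4.80 in control arrays, a change of -0.53 (SE 0.119, limma adjusted p = 0.0331), under the fold limit at 1.44-fold, and was called at -1.09 with ribosomal protein centring. All 8 changes thus had the same sign and unequal sizes, with a span of 2.60 between the AFFX probe sets and 1.42 between the ABI probes. Of 706 AFFX genes with 5 probe sets, 18 (2.55%) had a span at least as wide, the median being 0.521, and on ABI 22.6% of 412 genes with 3 probes did, the median being 0.860. The transcript stretch that each probe covers was not mapped here.

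**Figure D3:**
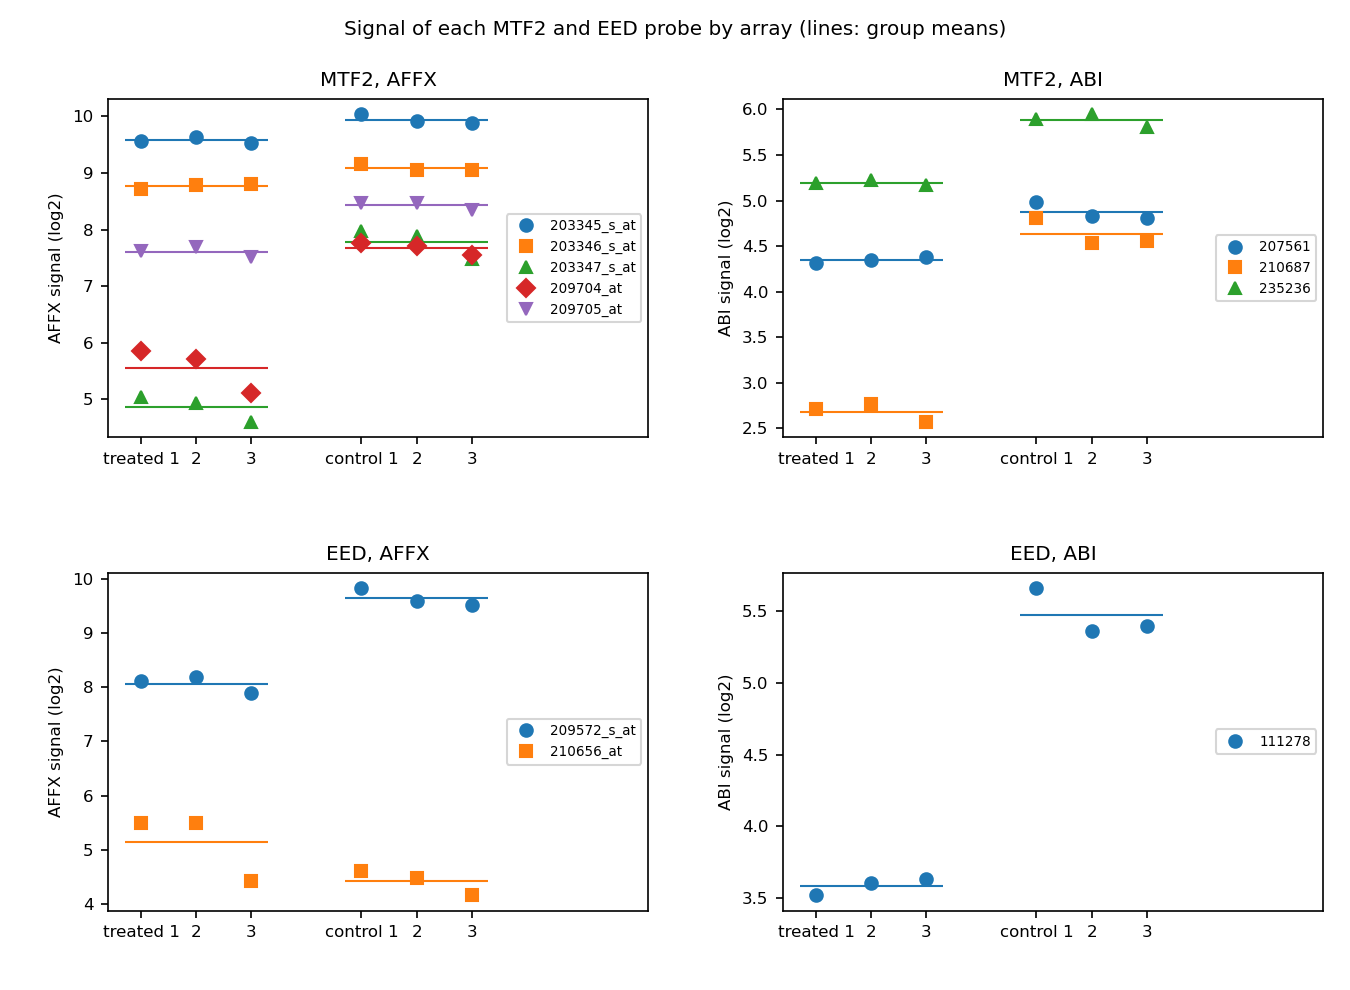
log2 signal of each MTF2 and EED probe on treated arrays 1 to 3 (left) and control arrays 1 to 3 (right), by platform, with lines at the group means. MTF2 203347_s_at and 209704_at differ far more between the groups than 203345_s_at and 203346_s_at, and EED 210656_at lies higher in treated arrays 1 and 2 only.

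PHF19, the other Polycomb-like protein among the members, had no called probe. AFFX probe sets 227211_at (treated 9.07, 9.11 and 9.01, control 8.73, 8.73 and 8.68) and 227212_s_at (treated 9.33, 9.41 and 9.24, control 9.01, 8.90 and 9.01) had changes of 0.35 and 0.36, with treated above control and no overlap, while 225533_at (treated 7.69, 7.50 and 7.72, control 7.85, 7.90 and 7.93) had -0.26 with treated below control. ABI probe 222821 read 4.59, 4.51 and 4.59 in treated arrays and 4.55, 4.31 and 4.32 in control arrays, a change of 0.17 (SE 0.129) with overlapping groups, which turned to -0.40 with arrays centred on ribosomal protein genes.

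JARID2, the accessory protein that can also tether PRC2 to H2A-ubiquitylated chromatin, had no called probe either. AFFX probe set 203298_s_at read 7.12, 7.02 and 7.23 in treated arrays and 7.59, 7.49 and 7.55 in control arrays, a change of -0.42 (SE 0.0864), and 203297_s_at had -0.22 and 240674_at 0.06. Probe set 240674_at was among the dimmest 33.3% of AFFX probe sets. ABI probe 113338 read 3.15, 3.14 and 3.32 in treated arrays and 3.73, 3.44 and 3.50 in control arrays, a change of -0.35 (SE 0.141, limma adjusted p = 0.140). The groups of 203298_s_at and of the ABI probe did not overlap, and the sizes were at most 1.34-fold. With ribosomal protein centring the ABI probe was at -0.92 and called lower (limma adjusted p = 0.00517).

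RING1, the PRC1 ubiquitin ligase, was lower on ABI alone. ABI probe 189240 read 3.95, 3.99 and 3.97 in treated arrays and 4.76, 4.58 and 4.50 in control arrays, a change of -0.64 (SE 0.127, limma adjusted p = 0.0229) without overlap. That call was lost when any 1 of the 6 ABI arrays was left out, at a limma adjusted p of 0.0549 to 0.0767, and with quantile normalization the change was -0.46, under the fold limit. On AFFX, 35685_at read 9.28, 9.37 and 9.34 in treated arrays and 9.46, 9.36 and 9.45 in control arrays and 208371_s_at read 8.54, 8.60 and 8.59 in treated arrays and 8.59, 8.55 and 8.68 in control arrays. Both overlapped, with changes of -0.09 (SE 0.0806) and -0.03 (SE 0.0807).

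The change on AFFX minus the change on ABI was tested for each gene measured on both platforms, with the probe of lowest p standing for the gene on each platform, and 15.1% of 16185 genes differed at a limma adjusted p under 0.05. Among the 8 members MTF2 and RING1 differed. MTF2 was lower on AFFX by a further 0.97 (difference -0.97, SE 0.224, 95% interval -1.47 to -0.47, limma adjusted p = 0.0167), and RING1 was less lowered there (0.55, SE 0.121, 0.28 to 0.82, limma adjusted p = 0.0135). The MTF2 difference turned to 0.32 when the brightest probe of each platform stood for the gene (limma adjusted p = 0.102), so its sign depended on the probes chosen. The cause of the difference was not tested. The RING1 difference missed the threshold with the replicate number as a block (limma adjusted p = 0.0554). For EED the difference was 0.30 (95% interval -0.08 to 0.69), for SUZ12 0.08 (-0.27 to 0.43), for PHF19 0.17 (-0.09 to 0.44), for JARID2 -0.07 (-0.39 to 0.26), for EZH2 0.70 (-0.16 to 1.56) and for EZH1 -0.51 (-1.50 to 0.48), none of them past the threshold. The SUZ12 value rested on the dim AFFX probe set 1566191_at (-0.57), while the brighter 212287_at had -0.19.

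The other proteins of the Polycomb system were taken from lists, which were also chosen with earlier results of these data known. Of 26 further PRC1 genes 23 had a probe on each platform, and 17 of 68 AFFX probe sets were lower, 1 was higher and 50 were not called, with a median change of -0.15. These are 25.0% and 1.47%, against 8.95% and 1.75% of all probe sets. On ABI 10 of 35 probes (28.6%) were lower and 1 (2.86%) was higher, against 10.1% and 7.71% of all probes, with a median of -0.23. The lower count was 6 without control array 1 and 22 with ribosomal protein centring. By the lowest-p probe, 7 of the 23 genes were lower on both platforms and 0 higher, where 10.5% of all shared genes were lower on both and 0.420% higher. E2F6, the DNA-binding repressor that brings a variant PRC1 to E2F sites, had the largest change among them. It read 6.17, 6.46 and 6.35 in treated AFFX arrays and 9.01, 8.90 and 8.88 in control arrays, and 1.43, 1.33 and 0.28 in treated ABI arrays and 4.21, 4.17 and 4.06 in control arrays, changes of -2.60 and -3.14 without overlap. AUTS2, part of a variant PRC1 linked to gene activation in neurons, had -1.17 on AFFX and -2.25 on ABI. Its other AFFX probe sets, 243364_at and 243365_s_at, had 0.006 and 0.21, both with overlapping groups. KDM2B, which carries variant PRC1 to unmethylated CpG islands, had -1.22 and -1.98, and PCGF1, the partner of KDM2B in that complex, had -1.17 and -1.57. CBX6, a chromodomain subunit, had -0.96 and -1.91, and PHC2, a polymerizing subunit of canonical PRC1, had -0.82 and -1.59. The other of the 7 was PHC3, at -0.61 and -1.20, named after its values were seen to complete the count. Among its other AFFX probe sets 1552644_a_at was also called lower, while 220328_at had 0.42 without overlap, under 1.5-fold. PHC3 probe sets 215521_at (-0.07) and 238693_at (-0.36) overlapped between groups. The other AFFX probe sets of PHC2, 1557852_at and 238131_at, had -0.35 and 0.18 and were not called.

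Of 7 further PRC2 genes all had an AFFX probe set and 5 an ABI probe, and 4 of 17 AFFX probe sets (23.5%, against 8.95% of all) were lower and 0 were higher, against 1.75% of all. Their median change was 0.08, where all probe sets had 0.12. On ABI 0 of 5 probes were called in limma, and 0 had an unadjusted p under 0.05, where 10.1% of all probes were lower and 7.71% higher. No gene of this list was called on both platforms. AEBP2, a zinc-finger subunit of the JARID2-containing form, had 1 of the lower probe sets, at -2.42 (treated 5.19, 5.37 and 4.99, control 7.86, 7.58 and 7.36), and is named here for its size after its values were seen. Its other AFFX probe set, 235184_at, had 0.07 and its ABI probe 202315 had -0.35 (limma adjusted p = 0.410), both with overlapping groups. The AFFX change minus the ABI change of AEBP2 was -2.07 (limma adjusted p = 0.00205).

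Of the listed genes of proteins and complexes that remove Polycomb marks, 4 were lower in treated cells on both platforms. The list held BAP1, ASXL1, ASXL2 and ASXL3, of the complex that takes ubiquitin off H2A, and the H3K27 demethylases KDM6A and KDM6B. BAP1 had no single-gene probe on either platform and was therefore not measured. Of 25 AFFX probe sets 12 (48.0%) were lower and 2 (8%) higher, against 8.95% and 1.75% of all probe sets, with a median of -0.53. On ABI 5 of 6 probes (83.3%) were lower, against 10.1% of all probes, with a median of -1.03, and 3 were lower without treated array 2 or control array 2. These 4 were among 5 genes with a probe on both platforms, where 10.5% of all shared genes were lower on both. KDM6A read 5.90, 5.86 and 6.01 in treated AFFX arrays and 7.71, 7.73 and 7.57 in control arrays, and 2.07, 1.70 and 1.56 in treated ABI arrays and 4.27, 4.30 and 4.10 in control arrays, changes of -1.74 and -2.45. ASXL1 had -2.52 on AFFX and -0.94 on ABI, ASXL2 -1.84 and -0.998, and ASXL3 -2.09 and -1.05. The ABI call of ASXL3 was lost without treated array 2 (-1.03) or control array 2 (-1.01). As with EED, probe sets of ASXL1 disagreed on AFFX, since 212237_at, 212234_at and 212238_at were lower and 242438_at and 242439_s_at higher, by 1.03 and 1.00 on the log2 scale. Its remaining probe set, 244519_at, had 0.54 without overlap, under 1.5-fold. For ASXL2, 226251_at and 218659_at were called lower. Its other AFFX probe sets, not called, ran from -0.53 for 1555266_a_at to 0.51 for 237095_at. For ASXL3, 214162_at and 233536_at were called lower, while 232838_at had -0.16 and 233686_at 0.07.

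Genes known as targets of Polycomb silencing in other cells were also read, because the marks themselves were not measured. Of 23 listed genes 18 had a probe on each platform. On AFFX 1 of 47 probe sets (2.13%) was lower and 2 (4.26%) were higher, against 8.95% and 1.75% of all probe sets, with a median change of 0.20 where all had 0.12. On ABI 0 of 21 probes were lower in limma (1 at an unadjusted p under 0.05) and 3 were higher, which is 14.3% against 7.71% of all ABI probes, with a median of 0.30 where all had 0.16. With ribosomal protein centring the higher count was 0 on both platforms. The ABI count of 3 was 0 or 1 whichever array was left out. None of the 18 genes was called on both platforms.

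**Figure D4:**
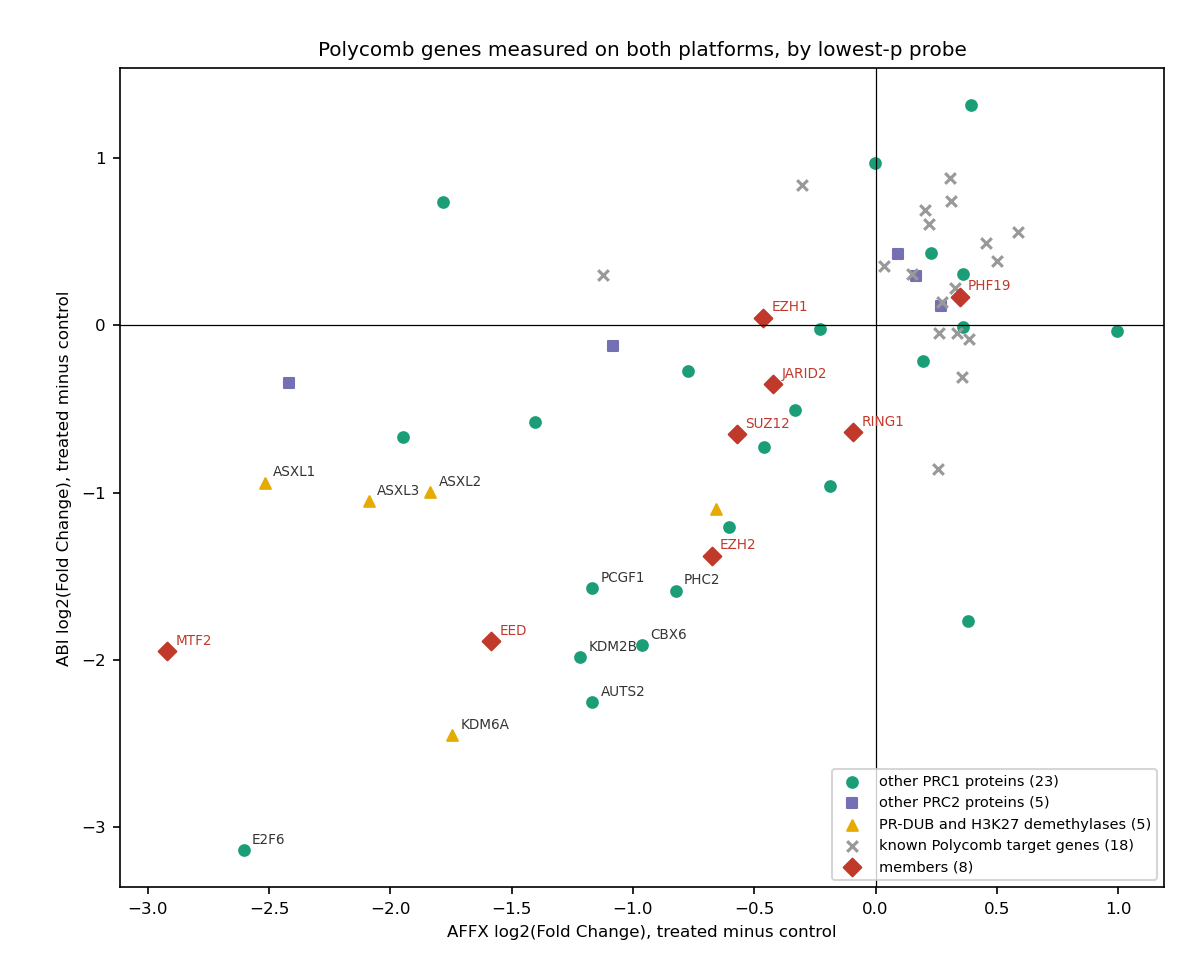
log2(Fold Change) on AFFX (horizontal) against ABI (vertical), treated minus control, for Polycomb genes measured on both platforms, each by its lowest-p probe, with members as diamonds and the other lists by marker. MTF2, EED, E2F6, KDM6A and the ASXL genes lie in the lower left, and PHF19 lies above 0 on both axes as the arrays were deposited, with the ABI value at -0.40 after ribosomal protein centring.

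The 5 genes whose pair of changes lay nearest to that of MTF2 among 16184 other genes, by Euclidean distance over the 2 platforms, were PLK4, AJUBA, TWIST1, PPP1R10 and MTPAP. PLK4, the kinase that starts centriole duplication, had -2.74 on AFFX and -2.07 on ABI, at a distance of 0.220. AJUBA, a LIM-domain adaptor, had -2.95 and -1.72, of which the ABI change missed the threshold (limma adjusted p = 0.0676). TWIST1, a transcription factor of mesenchymal cells, had -3.23 and -1.96. PPP1R10, a nuclear regulator of protein phosphatase 1, had -2.79 and -2.24, and MTPAP, the mitochondrial poly(A) polymerase, had -3.26 and -1.88. The largest distance among the 5 was 0.349, and likeness here means 2 changes of similar size and nothing more.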

How the data were processed

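Values of both platforms were used as deposited. On AFFX the authors deposited log2 signals (RMA, quantile normalized), and 62 control probe sets were set aside. On ABI the authors deposited linear chemiluminescence intensity after global median normalization, with the scale unstated and no detection flags. The spread between ABI arrays was the larger, so a change not called there is not shown to be absent. Intensity was turned to log2 here, and the precision is that of 3 technical arrays per group. Array medians were 5.37 to 5.47 (log2) on AFFX and 1.06 to 1.19 (linear) on ABI. RMA's version, any aligner and any genome build were not given in the sources used here. Probes were tied to genes by Entrez Gene ID and current RefSeq symbol: 41091 AFFX probe sets and 21089 ABI probes named 1 gene, 1801 and 563 named several, and 11721 and 11444 had no name.

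For each platform alone, limma 3.58.1 (R 4.3.3) fitted treated against control arrays without pairing, 2-sided, and p-values were adjusted by Benjamini and Hochberg's method across every probe that was not a control. Fold changes are treated over control. An exact permutation test of 3 against 3 arrays cannot go below p = 0.10. The platform difference was a limma interaction over 16185 shared genes. The probe of lowest p in the methods' t-test stood for a gene, chosen on the same arrays as the test, so such changes lean towards larger sizes. Array scripts were tested on simulated data. Promoter windows came from the RefSeq table (GRCh38.p14), where all 9 members were found, and EZH2, with 2 windows there, is shown at its outermost start.

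Every single-gene probe of the members is named. Of each other list, up to 6 genes called alike on both platforms are named, by summed absolute change, with PHC3 and AEBP2 added after their values were seen, and for MTF2 the 5 genes nearest in its pair of changes. Members and lists were chosen with earlier results of these data known. Listed genes with no single-gene probe enter as counts only. Marker lists covered epithelial and ovarian, leukocyte, and fibroblast and endothelial genes. None of the 25 AFFX probe sets of the last was higher, 1 was lower, and of 11 ABI probes 1 was higher. Of the epithelial and ovarian list 1 of 22 AFFX probe sets was lower, and of 13 ABI probes 1 was lower and 1 higher. Alternatives were a block by replicate number, other scalings, a filter on the dimmest 33.3% of probes, other fold limits, a pseudocount of 0.5 on ABI, the methods' t-test, a trend in eBayes, another representative probe, and each array left out.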

Additional observations from a re-analysis of the deposited data

Results flagged for a closer look

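Among the members, 2 genes stood out because the change measured on AFFX differed from that measured on ABI in a test of the difference itself. For MTF2 the AFFX change minus the ABI change was -0.97 (SE 0.224, limma adjusted p = 0.0167), from -2.92 on AFFX probe set 203347_s_at and -1.95 on ABI probe 210687. For RING1 it was 0.55 (SE 0.121, limma adjusted p = 0.0135), from -0.09 on AFFX probe set 35685_at and -0.64 on ABI probe 189240. The MTF2 difference turned to 0.32 with the brightest probes (limma adjusted p = 0.102), and the RING1 difference missed the threshold with the replicate block (0.0554). Both platforms read the same 2 RNA pools with different probes, and 15.1% of all shared genes differed by this test.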

How the results depend on the processing

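Arrays were 3 technical replicates of 1 pool per condition, so no alternative adds biological replication. The MTF2, EED 209572_s_at, EED 111278 and EZH2 changes kept their sign under every alternative run. The ABI call of EZH2 182185 was lost with the block (limma adjusted p = 0.107), median centring, quantile normalization and the methods' t-test, and the block also lost MTF2 235236, RING1, both SUZ12 probes, KDM2B, PCGF1, ASXL2 and ASXL3 on ABI. Same-numbered arrays correlated at 0.00403 to 0.327 on AFFX and -0.00667 to 0.0717 on ABI after removal of group means. The highest value was that of AFFX arrays numbered 3, so these values do not settle whether the numbers are pairs. The main fit did not take them as pairs, and the block was run as an alternative. With the replicate block, AFFX had 5 lower and 1 higher member probes as without it, ABI had 2 lower, and 1 member differed between platforms in place of 2, with RING1 at a limma adjusted p of 0.0554. With the highest-mean probe 1 member differed, MTF2 turned to 0.32 and JARID2 to 0.13, and leaving out each array gave 2 throughout. The AFFX higher count of 1 became 0 with median centring, ribosomal protein centring, a 2-fold limit or the methods' t-test, and ranged from 0 to 1 over arrays left out. The AFFX lower count of 5 became 13 without a fold limit (with 5 higher) and 3 at 2-fold, and was 4 to 6 over arrays left out. The ABI lower count of 7 became 4 after quantile normalization, 3 at 2-fold and 9 with ribosomal protein centring, and was 2 to 3 over arrays left out. The AFFX lower count was 6 with median and 7 with ribosomal protein centring. Ribosomal protein centring moved the median change of all probes to -0.05 on AFFX, against 0.12 as deposited, and to -0.41 on ABI, against 0.16. The share of calls that were lower went with it, at 96.6% against 83.6% on AFFX and 97.0% against 56.7% on ABI, and was 84.5% on ABI with the block. It turned EZH1 211310_at to -0.089 and JARID2 240674_at to -0.10 on AFFX, and EZH1 216799 to -0.52 and PHF19 222821 to -0.40 on ABI. Quantile normalization turned EZH1 216799 to -0.10, and over arrays left out it ran from -0.38 to 0.43. SUZ12 1566190_at ran from -0.15 to 0.039 and RING1 208371_s_at from -0.060 to 0.0049 over arrays left out. The platform difference of SUZ12 was -0.0054 with median centring and ran from -0.0071 to 0.17. The cause was not tested for any of these. Counts of the other lists under the same alternatives were chosen after seeing the data, and with the block 5 PRC1 probes and 2 probes of the mark-removing list were lower on ABI.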
